A study of Mus musculus with 12 samples.

Results

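Described here are 10 genes of transforming growth factor beta (TGF-beta) signalling, chosen by name from the 55291 gene symbols counted in each library: the ligands Tgfb1, Tgfb2 and Tgfb3, the latent binding protein Ltbp1, the receptors Tgfbr1, Tgfbr2 and Tgfbr3, the target genes Ccn1 and Ccn2, and the inhibitor Smad7. All 10 were found in the files and had enough counts to be tested. The study took RNA, per the labels, from Vecad+ endothelial cells of 2 tissues, bone marrow and lung. Every mouse was of the VECadCre-tdTomato line, named for a Cre recombinase driven from the gene of VE-cadherin, an endothelial adhesion protein, together with a red fluorescent protein. The marrow AML and the lung AML libraries came from such mice after transplantation of acute myeloid leukaemia (AML) cells with the genotype Trp53(R172H/delta), a mutant and a deleted allele of a tumour suppressor gene. The marrow control and the lung control libraries came from mice without a transplant. Leukaemia and the transplantation itself therefore cannot be told apart, and an AML effect below means both together. Each of the 4 groups held 3 libraries. The sources used here do not give the age of the mice, the time after transplantation or whether Cre was inducible. Nothing in the labels says that libraries of a group came from separate mice, so the p-values below measure only the spread between these libraries.

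TGF-beta ligands are secreted in a latent form, held by their own propeptide and anchored to the matrix by latent TGF-beta binding proteins such as Ltbp1. Released ligand binds the type II receptor Tgfbr2, which activates the type I receptor Tgfbr1, and the co-receptor Tgfbr3 (betaglycan) presents ligand, Tgfb2 above all. The receptors phosphorylate Smad proteins, which enter the nucleus and change transcription, and Smad7 is an induced inhibitor that closes the loop. Ccn1 (CYR61) and Ccn2 (CTGF) are secreted matricellular proteins, encoded by fast-responding genes that TGF-beta and the mechanosensitive YAP and TEAD factors both switch on. In marrow, TGF-beta is known for holding blood stem cells quiescent.

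The sequences below are the 250 bases before the start of 4 of these genes, from RefSeq on GRCm38.p6, each written 5′ to 3′ on the strand of its gene. They are shown because Ccn1 was the most abundant of the 10 transcripts per kb of exon, Ltbp1 rose with a small error in marrow AML, and the ligands Tgfb2 and Tgfb1 moved in opposite directions there. Capitals mark matches on either strand to CATTCC (TEAD factors), TGANTCA (AP-1), TGACGTCA (the cyclic AMP response element) and TATAAA (the TATA box). The Ccn1 window lies at chr3:145649986-145650235 on the minus strand, that of Ltbp1, before the upstream of its 2 listed starts, at chr17:75005279-75005528 on the plus strand, that of Tgfb2 at chr1:186705990-186706239 on the minus strand and that of Tgfb1 at chr7:25686752-25687001 on the plus strand.
Ccn1: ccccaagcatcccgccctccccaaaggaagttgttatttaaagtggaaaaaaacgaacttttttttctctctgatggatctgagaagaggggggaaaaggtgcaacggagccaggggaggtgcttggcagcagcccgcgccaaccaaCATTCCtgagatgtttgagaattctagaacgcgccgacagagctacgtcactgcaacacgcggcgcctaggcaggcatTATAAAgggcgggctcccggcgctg
Ltbp1: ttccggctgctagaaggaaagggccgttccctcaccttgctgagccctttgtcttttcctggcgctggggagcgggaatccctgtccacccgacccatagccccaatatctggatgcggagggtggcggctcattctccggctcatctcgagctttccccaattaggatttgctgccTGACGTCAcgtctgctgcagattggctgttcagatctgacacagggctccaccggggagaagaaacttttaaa
Tgfb2: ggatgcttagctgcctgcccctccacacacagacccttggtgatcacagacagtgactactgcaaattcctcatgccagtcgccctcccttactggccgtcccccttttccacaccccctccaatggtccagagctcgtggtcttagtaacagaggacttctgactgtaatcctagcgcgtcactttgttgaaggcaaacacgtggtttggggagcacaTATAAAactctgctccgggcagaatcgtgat
Tgfb1: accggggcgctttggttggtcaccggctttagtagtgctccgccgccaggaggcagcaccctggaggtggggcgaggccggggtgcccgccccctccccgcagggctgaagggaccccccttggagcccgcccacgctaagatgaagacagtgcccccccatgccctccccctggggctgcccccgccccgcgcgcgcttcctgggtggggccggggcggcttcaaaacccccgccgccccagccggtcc

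The Ccn1 window held CATTCC, whose first base lay 103 bases before the start, and TATAAA, 25 bases before it. The Ltbp1 window held TGACGTCA at 73 bases, and the Tgfb2 window held TATAAA at 31 bases. The Tgfb1 window held none of the 4 motifs, and the palindrome GTCTAGAC, bound by Smad proteins, was in none of the 4 windows. Of 32851 RefSeq promoters of the same length, 12.6% held CATTCC, 6.75% held TGANTCA, 1.55% held TGACGTCA, 0.167% held GTCTAGAC and 12.4% held TATAAA. No matches overlapped one another in the windows shown. Windows of 6 of the 10 genes were used, and those of Tgfbr1 and Tgfbr2 held none of the 5 motifs. No window was used for Tgfb3, Tgfbr3, Ccn2 or Smad7, that of Smad7 by a choice made beforehand. Nothing is said here of motifs before those genes, GTCTAGAC included.

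The labelled cell type was checked against marker genes before the results. The 10 pan-endothelial markers took 0.0219%, 0.0170% and 0.0228% of all counts in marrow AML, against 0.00957%, 0.0134% and 0.0160% in marrow controls. Of the 10, edgeR called 1 higher and 4 lower in marrow AML, and limma-voom called none. Egfl7 and Esam made up most of the marrow AML sum, while Kdr had 50, 42 and 12 counts in marrow AML and 359, 312 and 449 in marrow controls. In the lung the 10 markers took 0.0217%, 0.0635% and 0.0360% in AML, against 0.161%, 0.493% and 0.222% in controls. Cdh5, which encodes VE-cadherin itself, had 6, 25 and 16 counts in the marrow AML libraries and 76, 130 and 78 in the marrow controls. It had 141, 744 and 290 counts in lung AML and 1734, 9070 and 3791 in lung controls. Endothelial transcripts were thus a small part of every library, and the cells are called here by tissue and treatment. Markers of pericytes and smooth muscle, all 10 of them detected in every library, took 0.492%, 0.318% and 1.08% in marrow AML, against 0.0683%, 0.0193% and 0.0324% in marrow controls, and 8 of the 10 rose. Erythroid markers fell to between 0.0191% and 0.242% in marrow AML, against 1.18% to 1.40% in marrow controls, with all 8 genes lower. Lung epithelial markers, led by surfactant genes, took 20.3% to 22.5% in lung AML and 15.2% to 19.0% in lung controls. They were found in marrow libraries too, with 0.0403%, 0.0331% and 0.186% in AML and 0.0399%, 0.237% and 0.0658% in controls. In each marrow library that was more than the pan-endothelial share. The source of these lung transcripts in marrow libraries was not tested. Leukocyte markers took 0.00709% to 0.0136% in marrow AML, against 0.00128% to 0.00302% in marrow controls, with 5 of 6 genes higher. Macrophage and megakaryocyte markers took at most 0.0107% and 0.00966% in any library. Among the endothelial markers, Erg had 0 counts in marrow AML library 3. In bulk RNA, fewer cells of a type and less RNA per cell cannot be told apart.

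**Figure D1:**
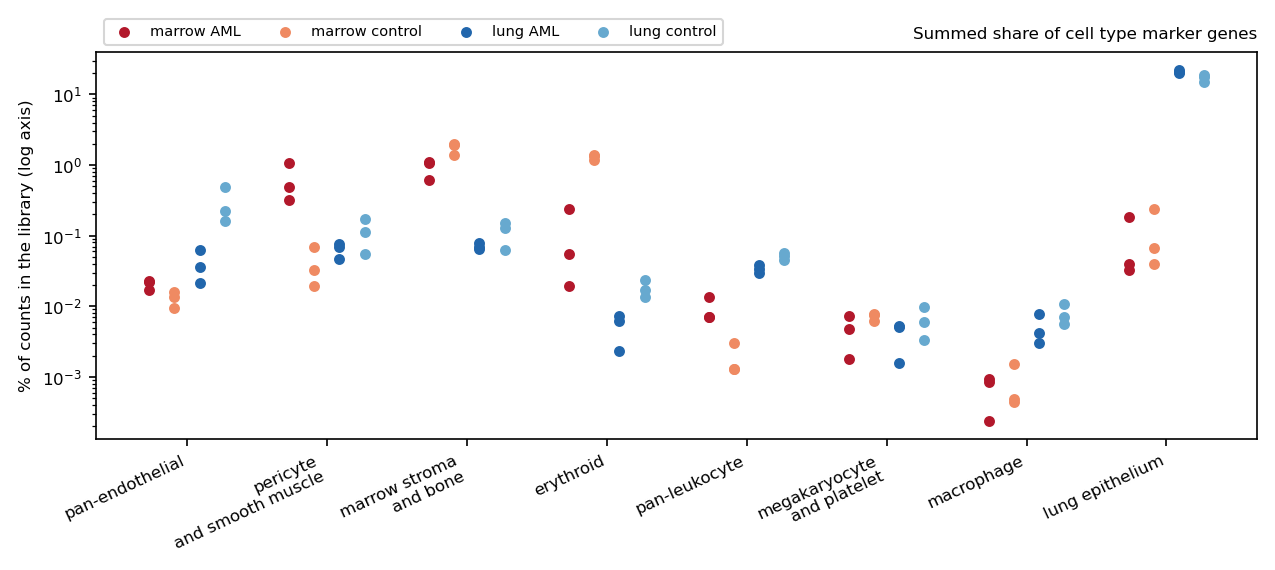
Summed share of all counts taken by marker genes of each cell type, on a log axis, with 1 point per library and 1 colour per group. Pericyte and smooth muscle markers lie between 0.318% and 1.08% in marrow AML and between 0.0193% and 0.0683% in marrow controls.

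Depth lay between 12.8 and 24.8 M counts in marrow AML, 17.0 and 21.8 M in marrow controls, 26.2 and 39.2 M in lung AML, and 24.1 and 28.6 M in lung controls. A count of 3 was worth 0.0766 to 0.235 CPM (counts scaled to a common library total), far under every member's level. CPM values below are scaled by TMM factors, and each log2 fold change, fitted over all libraries, stands with its standard error (SE). Genes were called by the edgeR quasi-likelihood test at an adjusted p under 0.05 over 18147 genes. Marrow AML library 3, with the most pericyte markers, and lung control library 2, with the most endothelial markers, stood apart within their groups, so counts of members are also given without both.

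In marrow AML against marrow control, 8 of the 10 genes rose and 1 fell, where 20.4% of all genes tested rose and 23.5% fell. The median log2 fold change was 1.70 over the 10 genes and -0.11 over all genes tested. Ccn2 rose most, followed by Ltbp1, Tgfb3 and Ccn1. Tgfb1 was the gene that fell, and Tgfbr1 was the gene that did not pass the test. Without marrow AML library 3 and lung control library 2, a setting added after the data were seen, all 10 genes were called, 9 of them higher. Among all genes, 8068 were called in that setting, 3737 of them higher. In lung AML against lung control only Tgfbr3 was called of the 10 genes, a rise, where 1.17% of all genes rose and 1.16% fell. No member was called lower there by edgeR, DESeq2 or limma-voom, and 1 was lower at an unadjusted p under 0.05. The count of 1 was the same without the 2 libraries that stood apart, where 252 of all genes were called, 119 of them higher. With all libraries, the median was 0.09 over the 10 genes and 0.00 over all genes.

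**Figure D2:**
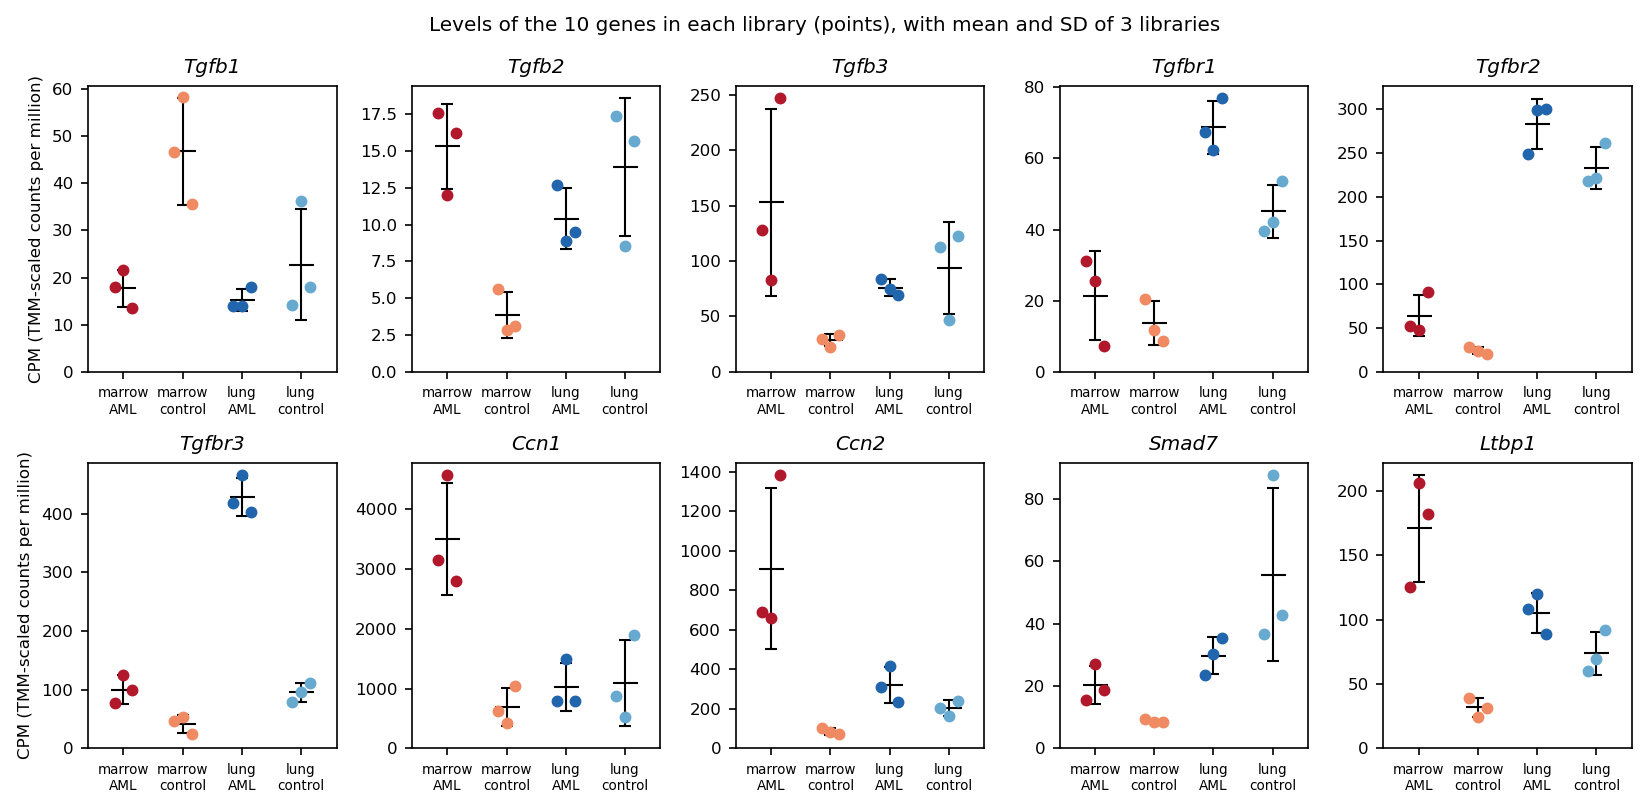
Level of each of the 10 genes in CPM in the 12 libraries, on linear axes from 0, with 1 panel per gene, points for libraries and bars for the mean and SD of 3 libraries. In marrow, AML and control points overlap only for Tgfbr1, and in lung they lie apart only for Tgfbr1, Tgfbr3 and Smad7. How many of all genes tested lie apart in the same way was not counted.

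Among the ligands, Tgfb1, the form made by most blood cells, went the other way from Tgfb2 and Tgfb3. Tgfb1 had 18, 21.6 and 13.6 CPM in marrow AML, against 46.6, 58.3 and 35.6 CPM in marrow controls. Every AML library was below every control, and the log2 fold change was -1.40 ± 0.35 (SE, adjusted p = 0.0076). Erythroid markers took 0.242%, 0.0555% and 0.0191% in the same AML libraries, against 1.18%, 1.35% and 1.40% in the marrow controls. The part of those cells in the fall of Tgfb1 was not tested. In the lung, Tgfb1 had 13.9, 14 and 18 CPM in AML and 14.1, 36.2 and 17.9 CPM in controls, and the groups overlapped. Lung control library 2 alone was high, and the lung difference did not pass the test (-0.57 ± 0.35, adjusted p = 0.484).

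Tgfb2, known for its roles in heart and vessel development, had 17.6, 12 and 16.2 CPM in marrow AML, against 5.63, 2.81 and 3.11 CPM in marrow controls. The marrow groups did not overlap, and Tgfb2 rose by a log2 fold change of 1.98 ± 0.39 (adjusted p = 0.00194). In the lung it had 12.7, 8.86 and 9.49 CPM in AML and 17.4, 8.57 and 15.7 CPM in controls, overlapping groups with a log2 fold change of -0.42 ± 0.38 (adjusted p = 0.699).

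Tgfb3, a ligand of mesenchymal and epithelial tissues, had 128, 82.8 and 247 CPM in marrow AML, against 30, 22.3 and 33.1 CPM in marrow controls. All AML libraries were above all controls, with a log2 fold change of 2.42 ± 0.43 (adjusted p = 0.000996). Library 3 was the highest of the AML group for Tgfb3 and also held the largest pericyte and smooth muscle share, 1.08%. The part of those cells in the rise was not tested. In the lung, Tgfb3 had 84.1, 74.7 and 69.0 CPM in AML and 113, 46.6 and 123 CPM in controls. Lung control library 2 was low where the other controls were high, and the difference was -0.31 ± 0.40 (adjusted p = 0.828).

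Per kb of exon, the scale on which genes can be set against each other, the make-up of the ligand transcripts did not overlap between the marrow groups for Tgfb3 or Tgfb1. Tgfb3 made up 85.2%, 79.4% and 93.0% of the 3 ligands' CPM per kb in marrow AML, against 46.5%, 35.3% and 56.3% in marrow controls. Tgfb1 made up 8.01%, 13.9% and 3.45% in marrow AML and 48.4%, 62.1% and 40.6% in marrow controls. The ratio of Tgfb3 to Tgfb1 per kb was 10.6, 5.72 and 26.9 in marrow AML, against 0.960, 0.569 and 1.39 in marrow controls, without overlap. An exact two-sided permutation test gave p = 0.1, the smallest that 3 against 3 allows, and 0.267 after adjustment over the 8 ratios compared. In the lung Tgfb3 led in all 6 libraries, with 79.6% to 83.7% in AML and 61.4% to 85.3% in controls, the lowest in control library 2.

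**Figure D3:**
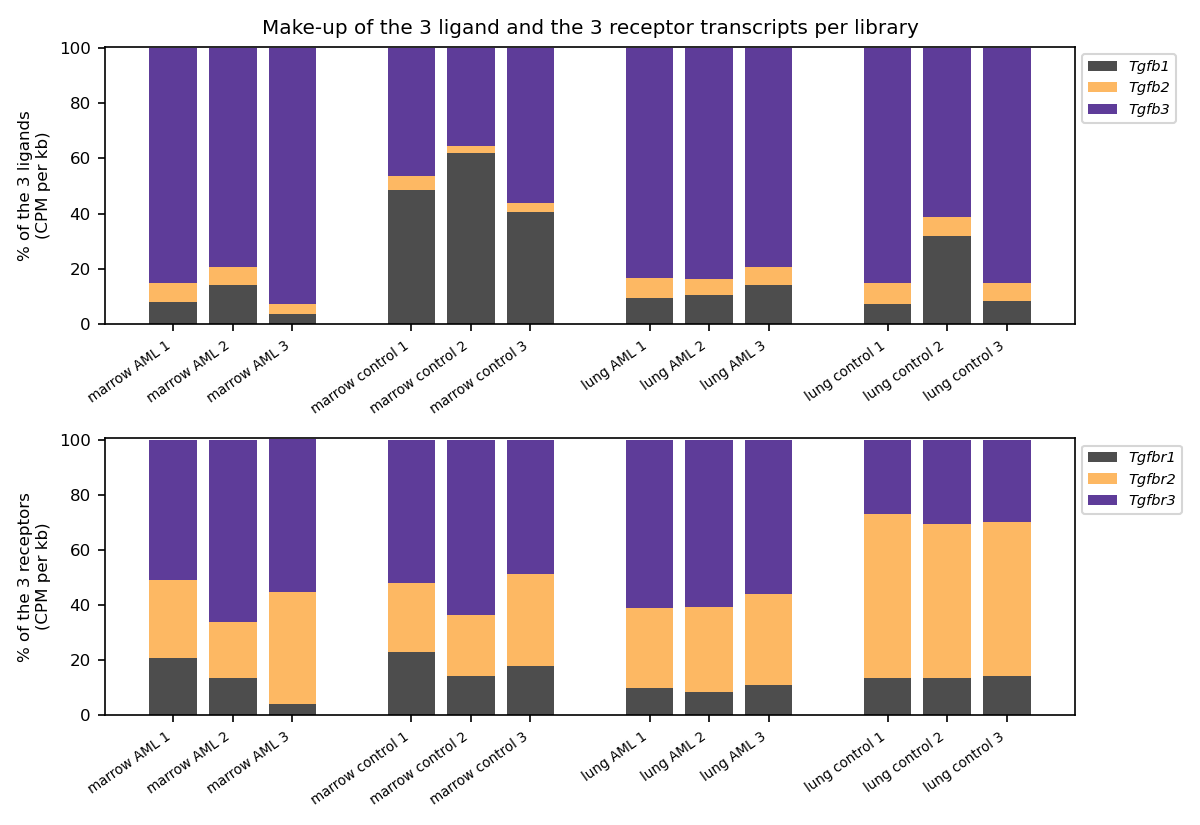
Share of each ligand (upper panel) and each receptor (lower panel) in the summed CPM per kb of its class, in percent, with 1 stacked bar per library. Tgfb3 takes 79.4% to 93.0% of the ligand bar in marrow AML and 35.3% to 56.3% in marrow controls, and Tgfbr3 takes 56.0% to 61.0% of the receptor bar in lung AML and 27.1% to 30.5% in lung controls.

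Ltbp1, which binds the latent complex and tethers it to fibrillin in the matrix, followed Tgfb2 and Tgfb3 in marrow. It had 125, 206 and 182 CPM in marrow AML, against 39.4, 24.0 and 31.6 CPM in marrow controls. The lowest AML library lay above the highest control, and the log2 fold change was 2.43 ± 0.26 (adjusted p = 5.44e-05). Here library 2, not library 3, was the highest of the marrow AML group. Library 2 held that group's largest share of marrow stroma and bone markers, 1.12%, against 1.06% in library 1 and 0.622% in library 3. The marrow controls, with lower Ltbp1, had larger shares of 1.99%, 1.37% and 1.94%. The 7 genes of that list other than Col1a1 and Col1a2 took 0.685%, 0.885% and 0.516% in marrow AML. In marrow controls those 7 took 0.404%, 0.278% and 0.517%. The part of those cells was not tested. In lung, Ltbp1 had 108, 120 and 88.6 CPM in AML and 59.8, 69.5 and 92.0 CPM in controls, which overlapped (0.51 ± 0.25, adjusted p = 0.333).

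Of the 3 receptors, Tgfbr2 and Tgfbr3 were called in marrow and Tgfbr3 in lung. Tgfbr1, the type I receptor kinase, had 31.3, 25.6 and 7.29 CPM in marrow AML and 20.5, 11.8 and 8.63 CPM in marrow controls. Library 3 was the lowest of all 6 marrow libraries, the groups overlapped, and the difference did not pass the test (0.64 ± 0.45, adjusted p = 0.275). Without marrow AML library 3 the log2 fold change was 1.05 (adjusted p = 0.0204). In lung, Tgfbr1 had 67.4, 62.3 and 76.9 CPM in AML, against 39.6, 42.2 and 53.6 CPM in controls. The lung groups did not overlap, yet the difference of 0.61 ± 0.45 was not called (adjusted p = 0.602).

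Tgfbr2, the type II receptor that binds Tgfb1 and Tgfb3 directly, had 52.9, 48.1 and 91.3 CPM in marrow AML, against 28.1, 23.5 and 20.1 CPM in marrow controls. It rose without overlap (1.42 ± 0.24, adjusted p = 0.000758), with library 3, of the largest pericyte and smooth muscle share, again the highest. Lung levels were higher than marrow levels in every library, with 249, 299 and 300 CPM in AML and 218, 221 and 261 CPM in controls. The lung groups overlapped and the difference was 0.28 ± 0.23 (adjusted p = 0.673).

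Tgfbr3, the co-receptor betaglycan, was the gene of the 10 called in both tissues. It had 76.9, 125 and 99.1 CPM in marrow AML, against 46.8, 53.6 and 23.7 CPM in marrow controls (1.28 ± 0.28, adjusted p = 0.00382). In the lung it had 418, 465 and 403 CPM in AML, against 79.4, 96.2 and 112 CPM in controls (2.16 ± 0.29, adjusted p = 0.00515). In each tissue every AML library was above every control. The lung rise was past the threshold in all 22 alternative settings, with adjusted p-values of 2.11e-11 to 0.0284. In lung AML, edgeR called 5 of the 10 pan-endothelial markers lower, and DESeq2 and limma-voom each called all 10 lower. Of the 10 pericyte and smooth muscle markers, edgeR called none. DESeq2 called 1 of those higher and 1 lower, and limma-voom 2 higher and 1 lower. Of 9 markers of marrow stroma and bone, edgeR called 1 higher there and 1 lower. DESeq2 called 1 higher and 2 lower, and limma-voom 1 higher and 3 lower. The part of cell make-up in the rise of Tgfbr3 was not tested.

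Per kb, the make-up of the lung receptor transcripts did not overlap between groups. Tgfbr3 took 61.0%, 60.7% and 56.0% of the 3 receptors in lung AML, against 27.1%, 30.5% and 29.9% in lung controls, where Tgfbr2 led with 59.4%, 56.1% and 55.8%. The ratio of Tgfbr3 to Tgfbr2 per kb was 2.10, 1.94 and 1.68 in lung AML and 0.455, 0.544 and 0.535 in lung controls. The exact two-sided permutation p was 0.1, the smallest possible, and 0.267 after adjustment over the 8 ratios. In marrow Tgfbr3 led in both groups, with 51.1% to 66.1% in AML and 48.9% to 63.6% in controls.

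Per kb, the target genes Ccn1 and Ccn2 had the highest group means of the 10 genes in all 4 groups. Ccn1, whose product binds integrins and acts in angiogenesis and matrix turnover, had 3149, 4572 and 2793 CPM in marrow AML, against 620, 423 and 1035 CPM in marrow controls. The marrow groups did not overlap, and Ccn1 rose by a log2 fold change of 2.34 ± 0.50 (adjusted p = 0.00309). Marrow AML library 2 was the highest, and the stroma and bone shares of that group were 1.06%, 1.12% and 0.622%. The marrow controls, with lower Ccn1, had larger shares of 1.99%, 1.37% and 1.94%. The part of those cells was not tested. By counts per kb Ccn1 ranked 5, 4 and 11 of 21533 protein-coding genes in the marrow AML libraries, and 126, 286 and 85 in the marrow controls. In the lung Ccn1 had 792, 1491 and 788 CPM in AML and 876, 517 and 1900 CPM in controls. Those values overlapped throughout, and the difference was -0.10 ± 0.47 (adjusted p = 0.97).

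Ccn2, a mediator of fibrosis and matrix production, had 690, 658 and 1382 CPM in marrow AML, against 103, 80.8 and 72.1 CPM in marrow controls. The log2 fold change of 3.42 ± 0.34 was the largest of the 10 genes and the groups lay apart (adjusted p = 3.93e-05). Its rank by counts per kb was 175, 148 and 61 in marrow AML and 1792, 2264 and 2339 in marrow controls. Library 3, with the largest pericyte and smooth muscle share, was again the highest, and the part of those cells was not tested. In lung, Ccn2 had 313, 418 and 236 CPM in AML and 205, 163 and 242 CPM in controls, and only the lowest AML library reached into the control range (0.66 ± 0.31, adjusted p = 0.322). The antisense gene Gm15270 shares 665 exonic bases with Ccn2, and unstranded counts cannot tell them apart. Gm15270 was given 41, 82 and 175 counts in the marrow AML libraries, against 67509 counts of Ccn2 in all 3. Those counts do not show how many reads of the shared bases were given to Ccn2.

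Smad7, the inhibitor that blocks the type I receptor, had 15.4, 27.1 and 18.6 CPM in marrow AML, against 9.26, 8.34 and 8.51 CPM in marrow controls. It rose without overlap (1.23 ± 0.34, adjusted p = 0.0127), the smallest rise called in marrow, and limma-voom did not call it (adjusted p = 0.12). In lung the order was the opposite, with 23.5, 30.2 and 35.4 CPM in AML and 36.8, 87.7 and 42.7 CPM in controls. The lung groups did not overlap, but the difference of -0.91 ± 0.33 was not called (adjusted p = 0.189). Control library 2, which also held the largest endothelial marker share of 0.493%, was the high one, and the part of endothelial cells in the level was not tested.

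**Figure D4:**
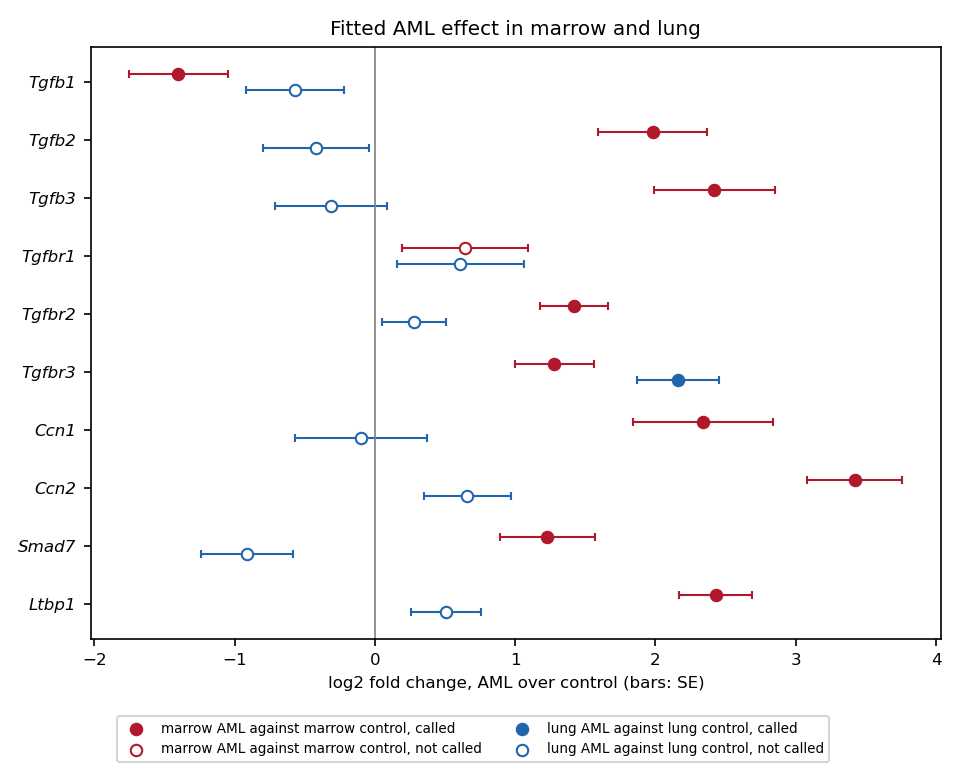
Fitted log2 fold change of AML over control for the 10 genes in marrow (red) and in lung (blue), with bars of 1 SE, filled where the adjusted p was under 0.05 and open where it was not. Marrow points lie between -1.40 for Tgfb1 and 3.42 for Ccn2, and in lung only Tgfbr3, at 2.16, is filled.

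Whether the AML effect differed between the tissues was tested as the marrow effect minus the lung effect, an interaction that uses all 4 groups and so shares its libraries with both comparisons above. It was positive and called for 7 of the 10 genes by edgeR, DESeq2 and limma-voom alike, and negative and called for none by any of them (1 at an unadjusted p under 0.05), where 14.6% of all genes were called positive and 16.1% negative. The difference was largest for Ccn2, at 2.76 ± 0.45 (adjusted p = 0.00123), and for Tgfb3, at 2.73 ± 0.58 (adjusted p = 0.00511). It was 2.44 ± 0.68 for Ccn1 (adjusted p = 0.0192) and 2.41 ± 0.54 for Tgfb2 (adjusted p = 0.00661). Smad7 had 2.14 ± 0.47 (adjusted p = 0.00634), Ltbp1 1.92 ± 0.35 (adjusted p = 0.00226) and Tgfbr2 1.15 ± 0.33 (adjusted p = 0.0222).

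The 3 genes without a called interaction were Tgfb1, Tgfbr1 and Tgfbr3. Tgfb1 had -0.83 ± 0.49 (adjusted p = 0.229), so its marrow fall was not shown to differ from the lung value, and without lung control library 2 the interaction was -1.33 and passed (adjusted p = 0.0303). For Tgfbr1 the difference was 0.03 ± 0.63 (adjusted p = 0.991). Tgfbr3 had -0.88 ± 0.39 (adjusted p = 0.115), and -1.17 without marrow control library 3, which passed (adjusted p = 0.0149). The call of Tgfbr2 was lost without marrow control library 2 or 3, lung control library 3 or lung AML library 1, with adjusted p-values of 0.0534, 0.055, 0.0561 and 0.0623. That of Ccn1 was lost without lung AML library 1 (0.0523) or 3 (0.0534).

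Marrow and lung controls, compared without leukaemia, differed in 9 of the 10 genes: 1 was higher in marrow and 8 were lower, where 29.4% of all genes tested were higher and 34.7% lower. These control libraries are the same that serve the AML comparisons, so the values here are not independent of those above. Tgfbr2 had the largest difference, at 23.9 ± 3.98 CPM in marrow controls and 233 ± 23.9 CPM in lung controls (SD, n = 3 each), a log2 fold change of -3.29 ± 0.25 (adjusted p = 1.58e-06). Smad7 followed with 8.70 ± 0.49 CPM in marrow controls and 55.7 ± 27.8 CPM in lung controls (-2.68 ± 0.35, adjusted p = 6.02e-05). Tgfb2, Tgfb3 and Tgfbr1 lay at -1.85, -1.72 and -1.72, and Ccn2, Ltbp1 and Tgfbr3 at -1.26, -1.22 and -1.21. Tgfb1 was the gene higher in marrow controls, with 46.8 ± 11.4 CPM, against 22.7 ± 11.8 CPM in lung controls (1.04 ± 0.35, adjusted p = 0.0211). Its groups overlapped through marrow control library 3 and lung control library 2, and the call was lost without marrow control library 2 (adjusted p = 0.0868) or lung control library 1 (0.0888) or 3 (0.0859). Ccn1 did not pass the test (-0.66 ± 0.48, adjusted p = 0.24).

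Over the 4 groups the order of levels differed from gene to gene. Tgfb3 averaged 153 ± 84.6 CPM in marrow AML, against 28.5 ± 5.6 CPM in marrow controls, and 75.9 ± 7.64 CPM in lung AML, against 94.0 ± 41.4 CPM in lung controls (SD, n = 3 each). For Tgfb2 and Tgfb3 alike, the order was marrow AML, lung controls, lung AML and marrow controls, and the ranges of the upper 3 groups did not all lie apart. Ccn1, Ccn2 and Ltbp1 were also highest in marrow AML and lowest in marrow controls, while the lung groups lay between them. The receptors Tgfbr1 and Tgfbr2 were highest in lung AML, and Tgfbr3 had 428 ± 32.3 CPM there, with the means of marrow AML and lung controls near each other at 100 ± 24.1 and 95.8 ± 16.2 CPM. Smad7 was highest in lung controls, and Tgfb1 in marrow controls.

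The rest of the pathway was read from lists of genes with known roles. Of 11 genes of the latent complex and its activation, 7 rose in marrow AML and 1 fell, with a median log2 fold change of 1.38. Lrrc32 (GARP), which displays latent TGF-beta on the cell surface, had 112, 60.2 and 182 CPM in marrow AML, against 13.3, 6.53 and 9.76 CPM in marrow controls (3.58 ± 0.48, adjusted p = 0.000213). The related Nrros had 56.3, 51.9 and 44.7 CPM in marrow AML and 23.0, 18.8 and 17.0 CPM in marrow controls (1.38 ± 0.26, adjusted p = 0.00146), and Ltbp3, a second binding protein, rose by 1.51 ± 0.27 (adjusted p = 0.00122). Both surface carriers had the opposite order in lung. Lrrc32 had 23.0, 43.4 and 24.1 CPM in lung AML and 89.7, 160 and 76.3 CPM in lung controls, short of the threshold (-1.85 ± 0.44, adjusted p = 0.0567), and Nrros fell (-1.44 ± 0.26, adjusted p = 0.0191), the 1 gene of that list called in lung by edgeR, where DESeq2 and limma-voom each called 3 lower. Lrrc32 and Nrros were both highest in lung control library 2, which had 0.493% endothelial markers, and the part of endothelial cells was not tested. The gene of the list that fell in marrow was Itgb8, an integrin subunit that activates latent TGF-beta, named after its values were seen, with 0 counts in all marrow AML libraries and 11, 1 and 2 counts in the marrow controls. Taking 3 counts over the group as the floor, it was at least 5.65-fold lower, a bound that rests on control library 1, without which the controls hold no more than the floor. The fall of Itgb8 was not called by limma-voom (adjusted p = 0.102).

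Of 5 other receptors and co-receptors, 2 rose and 2 fell in marrow AML. The type I receptor Acvr1 rose by 2.48 ± 0.35 (adjusted p = 0.00026) and the BMP type II receptor Bmpr2 by 2.56 ± 0.40 (adjusted p = 0.000484). Tgfbrap1, a receptor-associated protein, fell (-1.58 ± 0.41, adjusted p = 0.00885), and so did the co-receptor endoglin (Eng, -1.73 ± 0.51, adjusted p = 0.0182). Neither of these was called lower by limma-voom. In lung AML 3 of the 5 fell and none rose, also by DESeq2, by limma-voom and at an unadjusted p under 0.05. Endoglin, typical of endothelial cells, had 27.4, 61.6 and 33.5 CPM in lung AML and 165, 709 and 216 CPM in lung controls (-3.16 ± 0.54, adjusted p = 0.0153). The endothelial type I receptor Acvrl1 (ALK1) and Bmpr2 fell as well (-3.22 ± 0.66, adjusted p = 0.0314, and -1.91 ± 0.38, adjusted p = 0.0275). All 3 were highest in lung control library 2, and the pan-endothelial list, with 5 of its 10 genes called lower in lung AML by edgeR and all 10 by DESeq2 and by limma-voom, moved with them. Its part in those falls was not tested.

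Of the 5 Smads, 3 rose in marrow AML and none in lung AML, where DESeq2 and limma-voom called none either and 1 was higher at an unadjusted p under 0.05. Smad1, of the BMP branch, rose by 2.44 ± 0.25 (adjusted p = 4.21e-05), the shared partner Smad4 by 1.72 ± 0.19 (adjusted p = 6.37e-05) and Smad2 by 0.60 ± 0.14 (adjusted p = 0.00547). Smad3, the other TGF-beta Smad, had 0.01 ± 0.30 in marrow (adjusted p = 1). Of 9 inhibitors of signalling, 7 rose and 2 fell in marrow AML, and those that fell, named after their values were seen, were the decoy receptor Bambi (-1.23 ± 0.31, adjusted p = 0.00828) and the phosphatase Ppm1a (-0.37 ± 0.14, adjusted p = 0.0493). Neither fall was called by limma-voom. Pmepa1, a membrane protein that sequesters Smads, had 98.4, 107 and 102 CPM in marrow AML, against 19.2, 11.6 and 10.4 CPM in marrow controls (2.90 ± 0.31, adjusted p = 5.52e-05). The corepressor Tgif1 rose by 2.25 ± 0.19 (adjusted p = 1.92e-05) and the ubiquitin ligase Smurf2 by 1.37 ± 0.23 (adjusted p = 0.000784). In lung AML Smad6, the inhibitory Smad of the BMP branch, fell to 24.6, 38.0 and 37.1 CPM, against 141, 385 and 214 CPM in lung controls (-2.89 ± 0.34, adjusted p = 0.00262), the 1 gene of the 9 that edgeR called there, where DESeq2 called 1 lower and limma-voom 1 higher and 2 lower. Smad6 too was highest in lung control library 2, and the part of endothelial cells in its level was not tested. Smad6 rose in marrow (1.12 ± 0.32, adjusted p = 0.0156), and its interaction was 4.01 ± 0.46 (adjusted p = 0.000235).

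Of 14 further TGF-beta target genes, 9 rose and 2 fell in marrow AML, with a median of 1.80. The cell cycle inhibitors Cdkn1a and Cdkn2b rose by 2.44 ± 0.27 (adjusted p = 7.48e-05) and 3.51 ± 0.44 (adjusted p = 0.000144). The 2 genes that fell were the collagens Col1a1 and Col1a2, and Col1a1 had 1010, 439 and 190 CPM in marrow AML, against 7721, 6364 and 6309 CPM in marrow controls (-3.64 ± 0.57, adjusted p = 0.000531). Col1a1 and Col1a2 are also markers of marrow stroma and bone, a list of 9 with 3 genes called higher and 3 lower in marrow AML. It took 1.06%, 1.12% and 0.622% of counts in marrow AML, against 1.99%, 1.37% and 1.94% in marrow controls. Its other 7 genes took 0.685%, 0.885% and 0.516% in marrow AML, against 0.404%, 0.278% and 0.517% in marrow controls. Acta2 and Tagln, 2 of the 9 that rose, are also on the pericyte and smooth muscle list. The part of either cell type in these targets was not tested. In lung AML the collagen Col3a1 fell (-2.61 ± 0.56, adjusted p = 0.0376), and edgeR called none of the other 13 targets. DESeq2 called 1 target higher and 3 lower there, limma-voom 1 higher and 4 lower, and at an unadjusted p under 0.05 there were 1 higher and 5 lower.

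**Figure D5:**
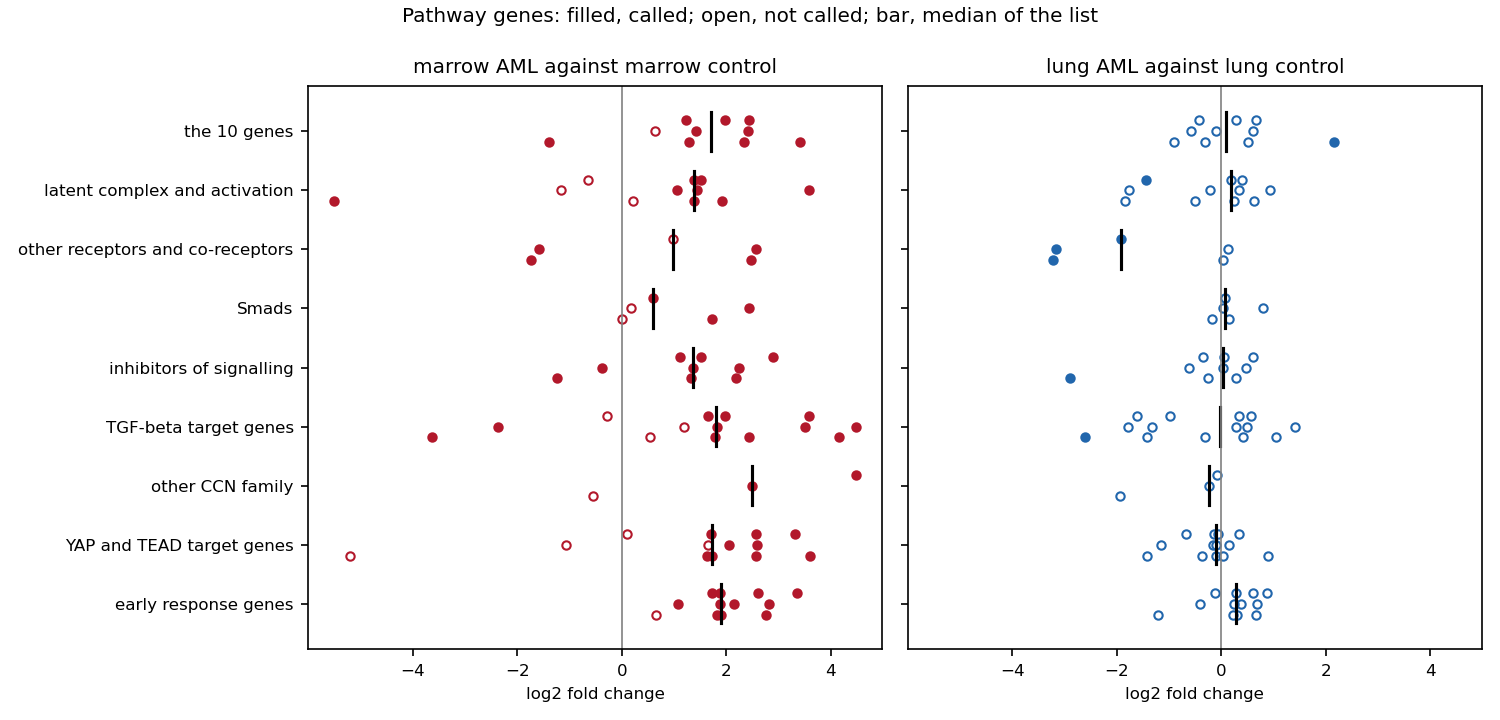
Fitted log2 fold change of every tested gene of each pathway list, for marrow AML against marrow control (left, red) and lung AML against lung control (right, blue), filled where called and with a black bar at the median of the list. Marrow medians lie between 0.60 and 2.50 in every list, and the lowest marrow points, Itgb8 and Ankrd1, are fitted values of genes with 0 counts in marrow AML.

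Lists of the wider CCN family and of genes that share its regulators were read as well. Of the 3 tested members among the other CCN genes, 2 rose. Ccn5 (WISP2), which lacks the C-terminal domain of the family, had 1126, 2003 and 1043 CPM in marrow AML, against 34.7, 43.2 and 107 CPM in marrow controls (4.49 ± 0.60, adjusted p = 0.000216). Its lung values overlapped, with 34.1, 80.6 and 52.3 CPM in AML and 88.6, 25.9 and 62.2 CPM in controls (-0.08 ± 0.52, adjusted p = 0.977). Ccn3 (NOV) had 34.8, 20.3 and 137 CPM in marrow AML and 25.1, 6.28 and 2.46 CPM in marrow controls, and the groups overlapped. It was called higher (2.50 ± 0.88, adjusted p = 0.038), but not by limma-voom (0.135). The edgeR call was also lost without marrow AML library 3, the one with the most pericyte markers (1.27, adjusted p = 0.207), and without marrow control library 2 (0.125) or 3 (0.103). Ccn4 had -0.55 in marrow (adjusted p = 0.346), and Ccn6 was not tested.

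Of 13 target genes of YAP and TEAD, 9 rose in marrow AML and none fell, with a median of 1.72. Arhgef17, a RhoA exchange factor, rose by 3.31 ± 0.30 (adjusted p = 2.48e-05), the membrane repair protein Myof by 2.56 ± 0.41 (adjusted p = 0.000541) and the YAP-binding Amotl1 by 2.05 ± 0.31 (adjusted p = 0.000419). Ankrd1, named after its values were seen, had 0 counts in marrow AML and 1, 10 and 0 in the marrow controls, where control library 3 equalled the AML libraries. It was not called by edgeR (adjusted p = 0.0559) and was called by DESeq2 (adjusted p = 0.0177), and it rests on control library 2, without which edgeR gave an adjusted p of 0.304, against 0.0336 without control library 3. Of 12 early response genes, whose transcripts rise quickly after a stimulus, tissue handling included, 11 rose in marrow AML, with a median of 1.89. Fos had 5060, 6183 and 6620 CPM in marrow AML, against 934, 575 and 1111 CPM in marrow controls (2.77 ± 0.28, adjusted p = 4.47e-05), and Klf6 and Fosb rose by 2.60 ± 0.27 (adjusted p = 4.96e-05) and 1.90 ± 0.20 (adjusted p = 5.11e-05). Ccn1 and Ccn2 are themselves early response genes, and the part of tissue handling in their levels was not tested. In lung AML edgeR and DESeq2 called no gene of the YAP and TEAD or the early response list, with medians of -0.11 and 0.29, and limma-voom called 2 and 1. At an unadjusted p under 0.05, 1 YAP and TEAD target was lower and 2 early response genes were higher. Fos had 2185, 2534 and 2285 CPM in lung AML and 1745, 1095 and 1782 CPM in lung controls (0.60 ± 0.27, adjusted p = 0.288).

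For each of the 10 genes, the tested genes with the most similar profile over the 12 libraries were taken by the root mean square (RMS) difference of centred log2 CPM, a description that carries group differences as well as spread within groups. The closest profile to Tgfbr2 was that of Pard3, a polarity protein, with an RMS difference of 0.214, then Ccdc126 with 0.219. Closest to Ltbp1 were Rab38, a small GTPase (0.238), and Vasn (0.284), a membrane protein known to bind TGF-beta. Those of Ccn2 were Myom1, a muscle M-band protein (0.325), and Sv2a (0.328), and those of Tgfb3 were Slc25a4, a mitochondrial carrier (0.334), and Ntn4, a netrin (0.357). Ccn1 was followed by Cd302 (0.429) and P3h2 (0.451), and Smad7 by Ctnnd1, p120 catenin (0.242), and Adgra3 (0.286). Tgfb1 had Tmem128 (0.251) and Sdhaf3 (0.257), Tgfb2 had Haao (0.27) and Rtn4rl1 (0.282), and Tgfbr1 had Scaper (0.337) and Dsel (0.37). Tgfbr3 had the most distant neighbours of the 10 genes, the clock gene Per2 (0.482) and the receptor Lrp1 (0.512).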

How the data were processed

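Per the labels, RNA from low-input samples was turned into libraries with SMART-seq v4 and ThruPLEX kits, and per the submitters' processing notes the tools were bcl2fastq and STAR, the build was mm10, and no versions are given. The files deposited by the authors list a raw count for each gene symbol in each library, made without regard to strand, per the file names. The sources used here do not give the counter or the gene annotation. Library totals were 12.8 to 39.2 M counts, and no 2 libraries were identical.

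The counts were tested in R 4.3.3 with edgeR 4.0.16 (TMM scaling, expression filter by group with a minimum count of 10 and a minimum total of 15, robust quasi-likelihood F test). All 12 libraries were in 1 model of 4 groups with 8 residual degrees of freedom. A gene was called at a Benjamini-Hochberg adjusted p under 0.05 over the 18147 genes tested. The code of the test was also run on simulated counts with far fewer changed genes than were called in marrow AML. Its outcome is not reported here, and nothing above rests on it. Levels are TMM-scaled CPM, and levels per kb use the exon length of GENCODE vM21. Ratios between members were compared with exact permutation tests. Alternatives were DESeq2 1.42.0 (size factors and the Wald test), library totals alone, limma 3.58.1 (voom with sample quality weights), leaving out each library in turn, a fit restricted to the libraries of a comparison, a replicate block, a stricter filter (5 CPM in at least 3 libraries) and no filter at all. Leaving out marrow AML library 3 and lung control library 2 together was added after seeing the data.

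The 10 genes and all gene lists were chosen with earlier results of these data known, so counts over them are descriptions. Named were all 10 genes and, from each pathway list, up to 3 tested genes with the smallest p in each tissue's AML comparison, of which the text gives most (a gene of the target list that the rule took is not reported here), besides Acta2, Tagln, Col1a2 and those marked in the text as picked with their values in view. The 2 genes with the nearest profile to each of the 10 were named as well.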

Additional observations from a re-analysis of the deposited data

Results flagged for a closer look

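For 7 of the 10 genes the AML effect differed between marrow and lung by the edgeR interaction test, whose adjusted p-values stand beside the values in the results. Among all genes tested, 14.6% had an interaction called positive and 16.1% one called negative. The marrow effect minus the lung effect was 2.76 (log2) for Ccn2, 2.73 for Tgfb3, 2.44 for Ccn1, 2.41 for Tgfb2, 2.14 for Smad7, 1.92 for Ltbp1 and 1.15 for Tgfbr2. Over the same libraries, the interaction was called positive for 8 of 10 pericyte and smooth muscle markers (median 4.52) and for 9 of 12 early response genes (median 1.72). The part of either in the 7 differences was not tested.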

How the results depend on the processing

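The number of the 10 genes called stayed between 8 and 10 of 10 in marrow and at 1 in lung under the tools, scalings and filters tried. The count of all genes called in lung moved most. It was 423, with 1632 by the DESeq2 Wald test, 2260 by limma-voom, 1239 with only the lung libraries in the fit, 252 without marrow AML library 3 and lung control library 2, and 72 to 761 when single libraries were left out (72 without lung AML library 1, 83 without lung AML library 3, 116, 218 and 248 without lung control library 2, lung control library 1 and lung AML library 2, 761 without marrow AML library 3). The cause was not tested.

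Directions turned for 2 values near 0. Ccn1 in lung, at -0.10, was 0.00 with the replicate block and -0.44 to 0.56 when single libraries were left out. The interaction of Tgfbr1, at 0.03, was -0.05 by limma-voom and -0.34 to 0.45 when single libraries were left out. The interaction of Ccn1 was not called without the expression filter (adjusted p = 0.0578). Of the pathway calls lower in marrow, limma-voom called none of those among the latent complex, the other receptors and the inhibitors.

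Scaling by library totals moved the marrow median over all genes tested to 0.16 on the log2 scale, and limma-voom moved it to -0.31, against -0.11 with TMM. With library totals, 4651 of 7594 called genes were higher in marrow AML, against 3694 of 7957 with TMM. No member's called direction turned under either.

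With a replicate block, 9, 1, 7 and 9 of the 10 genes were called in the 4 comparisons, the same counts as without it, and 7253, 331, 4924 and 11255 genes overall. Deviations of same-numbered libraries correlated between -0.162 and 0.183, so the numbers were not taken to pair libraries. Depth limited no member, since the lowest level of the 10, 2.81 CPM for Tgfb2, lay far above 3 counts. The 3 libraries of a group limit the precision.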

Other observations

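In the controls, the wider pathway had many genes that were lower in marrow than in lung. Of the 11 genes of the latent complex, 8 were lower in marrow controls than in lung controls (median log2 fold change -1.80). Of the 9 inhibitors, 7 were lower (median -2.39), of the 13 YAP and TEAD targets 12 (median -2.79) and of the 12 early response genes 10 (median -1.29). Among all genes tested 34.7% were lower and 29.4% higher. The TGF-beta targets were split, with 7 of 14 lower and 2 higher. The marrow AML comparison uses the same marrow control libraries, so the values of the 2 comparisons are not independent.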
